A study of Homo sapiens with 15 samples.

Results

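The genes of cholesterol synthesis and of its control by SREBP (sterol regulatory element-binding protein) were followed in senescent human fibroblasts in which METTL14 was knocked down and returned, METTL14 being a subunit of the complex that writes N6-methyladenosine on RNA. They were chosen by name: 34 symbols were listed, 33 of them matched an Ensembl ID among the 57736 genes of the table, and ACACA matched none and is not analysed here. All 33 passed the filter on low counts. By role they fall into 7 enzymes of the mevalonate arm, 11 enzymes of the sterol arm, 4 genes of SREBP control, 5 genes of sterol transport and efflux, and 6 genes of fatty acid synthesis.

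All cells were IMR90, an established line of human fetal lung fibroblasts, infected with a retrovirus and given siRNA from day 4 onwards. The labels give 5 groups of 3 libraries. The wild-type add-back group carried RAS, siRNA against METTL14 and a lentivirus with wild-type METTL14. The R298P add-back group carried RAS, the same siRNA and a lentivirus with METTL14 bearing the R298P substitution. The knockdown group carried RAS, that siRNA and a lentiviral vector. The siControl RAS group carried RAS and a non-targeting siRNA, and the control group carried the empty retrovirus and the non-targeting siRNA. RAS is an oncogene that drives these fibroblasts into senescence, and all groups other than control carry it. The sources used here do not give the isoform of RAS or whether siControl RAS and control cells received any lentivirus. They also do not say whether replicate libraries stem from separate cultures, so the p-values reflect differences between libraries that may be technical. All groups come from 1 cell line. The genotype labels use the words knockout and knock-in, but the protocols describe siRNA and viruses, and the protocols are followed here.

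Cells make cholesterol from acetyl-CoA in a chain of reactions: the mevalonate arm builds farnesyl diphosphate, and the sterol arm joins it into squalene, closes the ring of lanosterol and trims lanosterol to cholesterol. When sterols in the endoplasmic reticulum run low, SCAP escorts the SREBP precursors to the Golgi, where proteases release a factor that binds sterol response elements in the promoters of these enzymes; INSIG proteins hold SCAP back when sterols are plentiful. Oxysterols act on LXR receptors, which switch on the exporters ABCA1 and ABCG1, so the export of cholesterol and its synthesis are usually under opposite control. Dividing fibroblasts need sterols and fatty acids for new membrane.

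SREBP binds with the partners NF-Y and Sp1, so the promoters of the members were searched on both strands for the sterol response element TCACNCCAC, the NF-Y box CCAAT and the Sp1 box GGGCGG. The sequences are RefSeq promoters of GRCh38.p14, from 250 bases before to 50 bases after the start of the gene, and 28 of the 33 members are in that table. The exact sterol element lay in 1 of 28 member promoters (3.57%) and in 396 of all 35116 promoters (1.13%). With at most 1 mismatch it lay in 13 of 28 (46.4%) and in 24.5% of all. CCAAT lay in 18 of 28 (64.3%) and in 34.6% of all promoters, and GGGCGG in 26 of 28 (92.9%) and in 45% of all. Members were counted with 1 promoter per gene. The set of all promoters was not limited in that way or to genes expressed here, so the shares come from unlike sets. These matches describe letters, and binding was not measured. The windows below show the matches with at most 1 mismatch in the synthesis and SREBP control genes whose values are given for every library, 5′ to 3′ on the strand of the gene, with the element in capitals. The element lies on the strand of the gene in each, except in the first INSIG1 and the second FDPS window, where it is reversed; in MVK it overlaps a GGGCGG box. HSD17B7, SC5D, ABCA1, NPC2, ACLY, SCD and FADS2 also held such matches, which are not shown.
SREBF2 (chr22:41832962-41832990, + strand, no mismatch): tgacgcgccaTCACCCCACgcaccgcttc
INSIG1 (chr7:155297660-155297688, + strand): cgggccggcgGTGGCGTGTgcgcacgtca
INSIG1 (chr7:155297760-155297788, + strand): cggggcaagcTCAGGCCACgcccctgggc
MVK (chr12:109573589-109573617, + strand): ttcgcagttcTCACCCCAGggcgggacac
IDI1 (chr10:1056695-1056723, - strand): gcgccggaagTCACGCCCCggcttccgcc
FDPS (chr1:155308716-155308744, + strand): tgcgccatgcTCACACGACggccagcagc
FDPS (chr1:155308845-155308873, + strand): cgcccttagtGTGGGGAGAgcgggaacta
MSMO1 (chr4:165327503-165327531, + strand): ctcactatccTCACTCCATccgcggagcc

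Full promoters are shown for SREBF2, which encodes an SREBP precursor and alone among these promoters held the exact element, and for MVK, whose promoter held 5 NF-Y boxes. SREBF2 has the element in capitals, and MVK has its NF-Y boxes in capitals, 1 on the strand of the gene as CCAAT and 4 reversed as ATTGG. Both are on the + strand.
SREBF2 (chr22:41832855-41833154): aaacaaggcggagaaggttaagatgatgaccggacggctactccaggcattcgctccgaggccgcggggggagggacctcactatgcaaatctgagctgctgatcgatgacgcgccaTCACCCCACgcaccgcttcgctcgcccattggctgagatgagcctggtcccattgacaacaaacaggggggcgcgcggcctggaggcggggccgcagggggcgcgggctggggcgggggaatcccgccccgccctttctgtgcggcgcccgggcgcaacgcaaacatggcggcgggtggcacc
MVK (chr12:109573544-109573843): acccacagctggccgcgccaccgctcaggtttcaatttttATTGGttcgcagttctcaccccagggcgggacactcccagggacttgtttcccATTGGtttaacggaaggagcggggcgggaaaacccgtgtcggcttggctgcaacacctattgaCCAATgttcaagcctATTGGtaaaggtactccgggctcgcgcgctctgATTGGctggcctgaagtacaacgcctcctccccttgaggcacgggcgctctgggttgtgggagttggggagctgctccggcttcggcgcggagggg

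Libraries held 4917661 to 7763084 counts, and the members took 0.145% to 0.180% of the counts of a library. Levels are given as CPM, counts relative to library size with TMM factors. METTL14 had 9.35, 4.94 and 3.94 CPM in knockdown libraries, against 26.2, 19.3 and 20.5 CPM in siControl RAS libraries, and 508 to 564 CPM in wild-type and 892 to 1038 CPM in R298P add-back libraries. The proliferation marker MKI67 stood at 38.4 to 44.9 CPM in knockdown, 7.31 to 14.1 CPM in siControl RAS and 264 to 303 CPM in control libraries. All 10 fibroblast markers had counts, with a summed level of 20477 to 21199 CPM in knockdown, 26850.0 to 28464 CPM in siControl RAS and 13227 to 13612 CPM in control libraries. Of 8 epithelial markers 5 had counts, summing to 23.9 to 35.8 CPM in knockdown, 26.0 to 32.1 CPM in siControl RAS and 64.2 to 85.2 CPM in control libraries, with CDH1, KRT5 and KRT14 at 0. Endothelial markers (4 of 6 with counts) summed to 39.5 to 43.5, 31.7 to 35.5 and 14.4 to 24.0 CPM in the same groups, with CDH5 and ERG at 0, and leukocyte (2 of 4) and adipocyte (3 of 5) markers reached at most 0.617 and 3.66 CPM in them. The part of these markers, and of the fall in MKI67, in the changes below was not tested.

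In siControl RAS cells the cholesterol synthesis enzymes were lower than in control, while the exporters ABCA1 and ABCG1 were far higher. This comparison asks what RAS-induced senescence does to the pathway. Of the 18 enzymes of the mevalonate and sterol arms, 11 fell and 0 rose, with a median log2 change of -0.58; by unadjusted p under 0.05, 13 fell and 0 rose, and DESeq2 and limma-voom each called 11 lower and 0 higher. Among all 33 members 19 were called, 6 higher and 13 lower (57.6%), where edgeR called 45.9% of all genes tested (24% higher, 21.9% lower). The threshold was an adjusted p under 0.05, by Benjamini-Hochberg over the 13516 genes of a two-sided quasi-likelihood test in edgeR. The libraries of the groups did not overlap for 21 of 33 members and for 54.2% of all genes. The median log2 change was -0.25 over the members and -0.0037 over all genes. In bulk libraries, fewer cells of a type and less RNA per cell cannot be told apart.

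**Figure D1:**
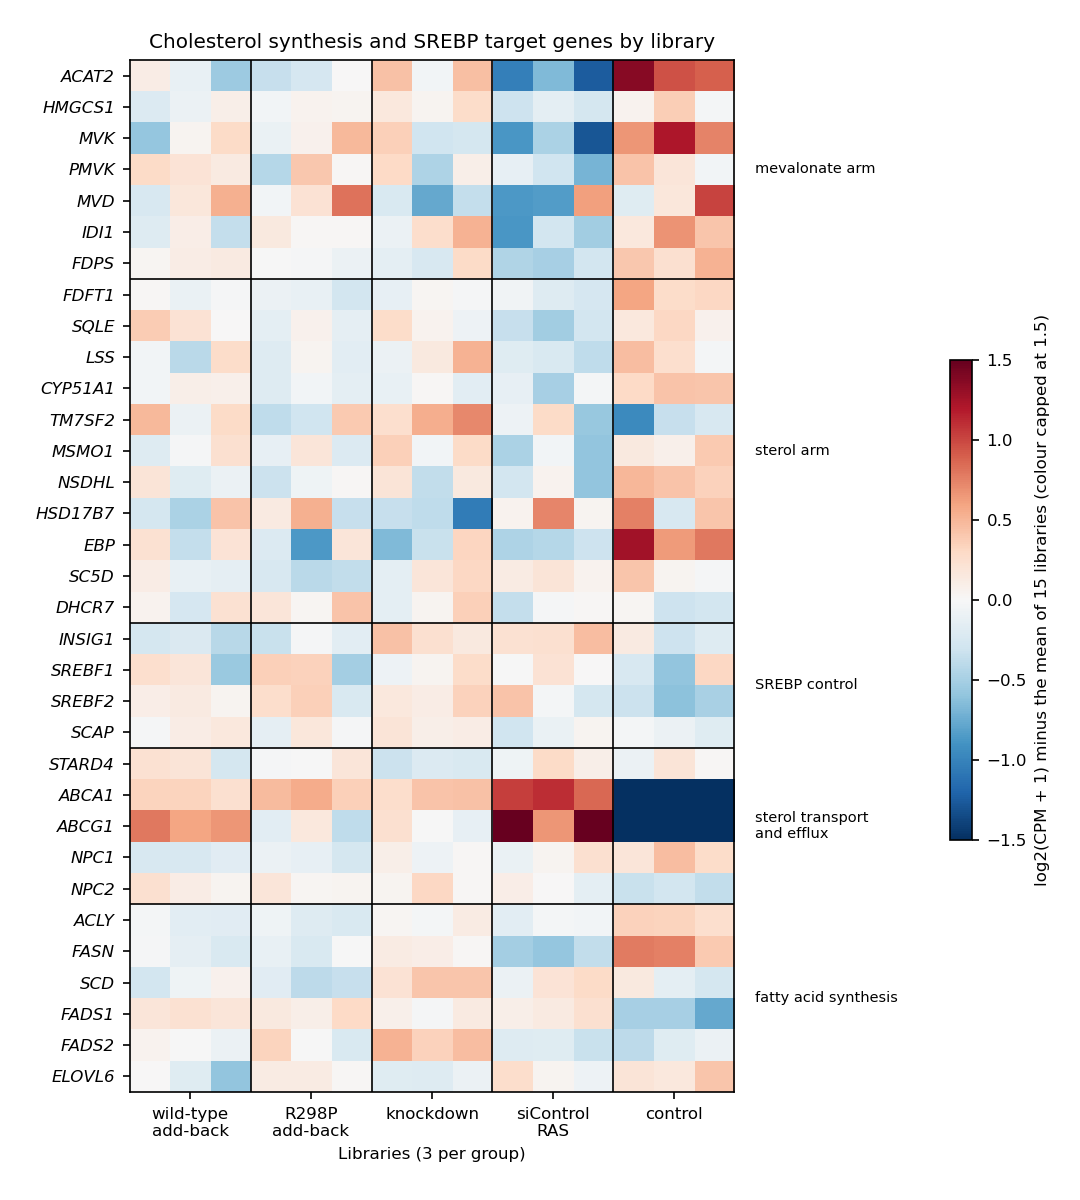
Level of each of the 33 members in each of the 15 libraries, as log2 of its CPM + 1 minus the mean of the gene over all libraries, with the colour scale capped; rows are genes by role and columns are libraries by group. Many enzymes of the mevalonate and sterol arms are highest in control and lowest in siControl RAS columns, and ABCA1 and ABCG1 show the reverse.

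The mevalonate arm summed to 94.1 to 103 CPM in siControl RAS libraries, against 187 to 194 CPM in control libraries. Of its 7 enzymes 4 fell and none rose (57.1% called, against 45.9% of all genes). ACAT2, which joins acetyl-CoA units at the entry to the arm, had 7.22, 9.55 and 6.06 CPM in siControl RAS libraries, against 42.4, 31.5 and 30.3 CPM in control libraries. All siControl RAS libraries lay below all control libraries, a 4.57-fold fall (log2 -2.19 ± 0.24 SE, adjusted p = 2.32e-09). MVK, the kinase of mevalonate, had 2.45, 3.56 and 1.60 CPM in siControl RAS libraries, against 9.06, 13.7 and 9.65 CPM in control libraries. It fell 4.24-fold with no overlap (log2 -2.08 ± 0.41, adjusted p = 7.25e-05), on as few as 9 counts in a library. IDI1, which isomerises isopentenyl diphosphate, had 9.94, 15.5 and 13 CPM in siControl RAS libraries, against 21.4, 31.1 and 25.8 CPM in control libraries, and fell 2.05-fold without overlap (adjusted p = 2.14e-04). FDPS, the synthase of farnesyl diphosphate, had 35.8, 34.8 and 40.8 CPM in siControl RAS libraries, against 66.1, 58.6 and 71.4 CPM in control libraries. Its 1.76-fold fall (adjusted p = 8.26e-06) also left the groups apart. HMGCS1, which makes HMG-CoA, and PMVK, the kinase after MVK, differed by -0.40 and -0.59 on the log2 scale and missed the threshold (adjusted p = 0.0507 and 0.0544), although their libraries did not overlap. The decarboxylase MVD had 1.09 to 4.81 CPM in siControl RAS and 2.34 to 6.65 CPM in control libraries, which overlapped.

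Neighbouring genes limit some of these values, because whether counting used strand is not given. In GENCODE 29 ACAT2 overlaps TCP1 on the opposite strand, with 1591 counts for ACAT2 and 17409 for TCP1 over all libraries, and TCP1 fell as well (log2 -0.96, adjusted p = 1.36e-11). MVK overlaps MMAB, an enzyme of cobalamin metabolism that also fell (log2 -1.42, adjusted p = 0.022), with 525 counts for MVK and 403 for MMAB. Reads of such pairs cannot be told apart without strand.

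Of the 11 enzymes of the sterol arm 7 fell and none rose (63.6% called, against 45.9% of all genes). The arm summed to 312 to 333 CPM in siControl RAS libraries, against 444 to 490 CPM in control libraries. EBP, the sterol isomerase, fell most: it had 9.54, 9.74 and 10.7 CPM in siControl RAS libraries, against 33.8, 21.6 and 24.1 CPM in control libraries. The fall was 2.65-fold with no overlap (log2 -1.41 ± 0.28, adjusted p = 9.37e-05). NSDHL, which takes part in removing methyl groups from the sterol ring, had 37.2, 47 and 29.8 CPM in siControl RAS libraries, against 64.4, 61.3 and 57.9 CPM in control libraries, and fell 1.61-fold (adjusted p = 6.06e-04). CYP51A1, the lanosterol demethylase, had 58.3, 45 and 62.6 CPM in siControl RAS libraries, against 78.8, 86.1 and 85.5 CPM in control libraries, and fell 1.51-fold (adjusted p = 1.05e-04). The highest siControl RAS library was replicate 2 for NSDHL and replicate 3 for CYP51A1, and both still lay below every control library. MSMO1, the sterol methyl oxidase, had 36.9, 50.6 and 34 CPM in siControl RAS libraries, against 57.7, 54.8 and 68.2 CPM in control libraries, and fell 1.49-fold (adjusted p = 0.00257). SQLE, the squalene epoxidase, had 34.7, 30.5 and 36.4 CPM in siControl RAS libraries, against 49.5, 55 and 46.4 CPM in control libraries, a 1.48-fold fall (adjusted p = 0.00126). Both sets of libraries stood apart. FDFT1, the squalene synthase, fell by 0.57 on the log2 scale (adjusted p = 9.47e-05). LSS, which closes the lanosterol ring, fell by 0.52 (adjusted p = 0.0466), a call at the edge of the threshold that was lost without siControl RAS replicate 1, 2 or 3 or control replicate 1 or 2 (log2 -0.57 to -0.40, adjusted p = 0.0651 to 0.193), and with the low-count filter dropped, DESeq2, limma-voom or the replicate block (adjusted p = 0.0507 to 0.0671). The later enzymes SC5D, HSD17B7 and DHCR7 and the reductase TM7SF2 differed by -0.04, -0.08, 0.06 and 0.50 on the log2 scale, with overlapping libraries and no call. TM7SF2 shares its strand with VPS51, and HSD17B7 had as few as 6 counts in a library.

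**Figure D2:**
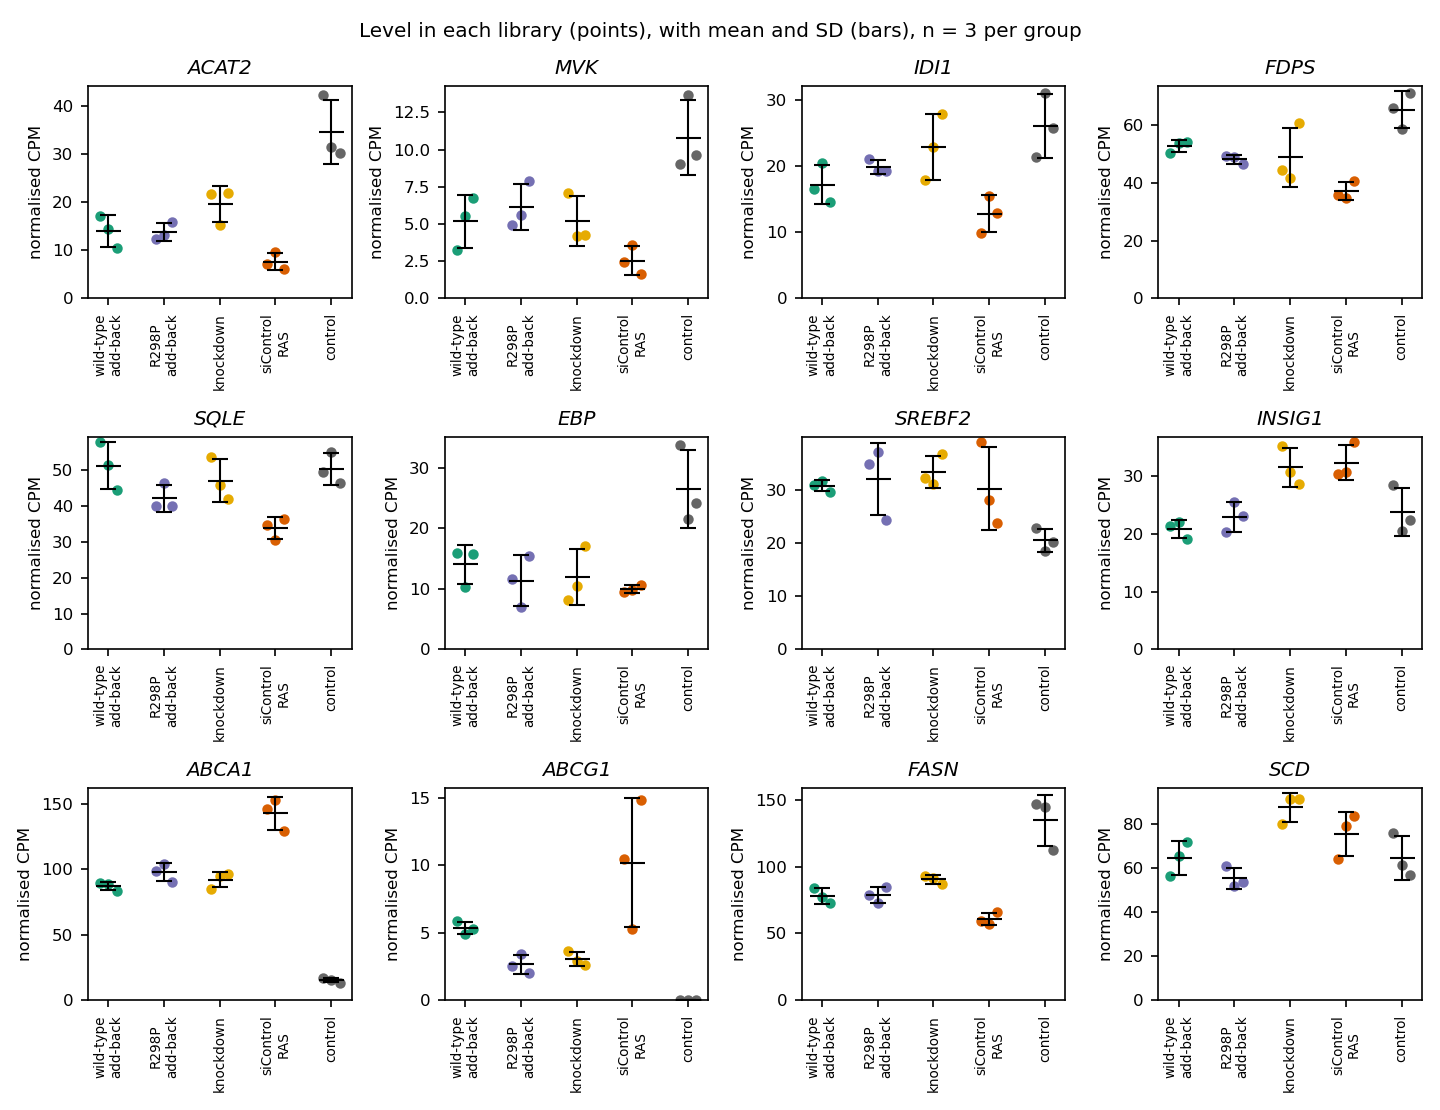
Normalised CPM in every library for 12 members, one panel each, with the groups in the order wild-type add-back, R298P add-back, knockdown, siControl RAS and control; points are libraries, and the black marks are the mean and SD of 3. ACAT2 stands at 6.06 to 9.55 CPM in siControl RAS and 30.3 to 42.4 CPM in control libraries, and ABCA1 at 129 to 153 and 13.6 to 16.7 CPM.

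Of the 4 genes of SREBP control 2 rose and none fell (50% called, close to the 45.9% of all genes). By unadjusted p, DESeq2 and limma-voom 0 were lower as well. SREBF2, whose product drives mainly sterol synthesis, had 39, 28.1 and 23.7 CPM in siControl RAS libraries, against 22.8, 18.4 and 20.3 CPM in control libraries, and rose 1.48-fold (log2 0.57 ± 0.19, adjusted p = 0.0136). Replicate 1 was above the other two siControl RAS libraries, and the call was lost without siControl RAS replicate 1 or control replicate 2 (log2 0.34 to 0.49, adjusted p = 0.0651 to 0.193). INSIG1, the retention protein that is itself an SREBP target, had 30.5, 30.7 and 36 CPM in siControl RAS libraries, against 28.6, 20.6 and 22.5 CPM in control libraries, and rose 1.35-fold (adjusted p = 0.0413) without overlap. That call was lost without siControl RAS replicate 1, 2 or 3 or control replicate 2 or 3 (log2 0.34 to 0.48, adjusted p = 0.0504 to 0.176), and with upper-quartile factors, without the filter or with only the libraries compared (adjusted p = 0.0518 to 0.0831). SREBF1, whose product drives mainly fatty acid synthesis, had 7.90, 9.37 and 8.02 CPM in siControl RAS libraries, against 6.56, 4.94 and 10.1 CPM in control libraries (log2 0.22, adjusted p = 0.632). SCAP, the escort protein, had 56.7, 65 and 71.7 CPM in siControl RAS libraries, against 68, 65.6 and 61.4 CPM in control libraries (log2 -0.01, adjusted p = 0.932). For both genes the libraries of the groups overlapped. SREBF1 is overlapped by RAI1 on the opposite strand, with 725 counts for SREBF1 and 2910 for RAI1.

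Among the transport genes 3 of 5 rose and none fell (60% called, against 45.9% of all genes). By unadjusted p, DESeq2 and limma-voom 0 were lower too. ABCA1, which loads cholesterol onto apolipoprotein, had 146, 153 and 129 CPM in siControl RAS libraries, against 16.7, 15.5 and 13.6 CPM in control libraries. It rose 9.32-fold, with no overlap (log2 3.22 ± 0.12, adjusted p = 7.80e-22). ABCG1, which passes cholesterol to high-density lipoprotein, had 10.5, 5.25 and 14.8 CPM in siControl RAS libraries and no count in any control library. With a floor of 3 counts over the control group (0.162 CPM), it was at least 63.3-fold higher (adjusted p = 6.29e-10); this floor covers counting error only. NPC2, which takes cholesterol out of lysosomes together with NPC1, had 221, 208 and 187 CPM in siControl RAS libraries, against 165, 171 and 161 CPM in control libraries, and rose 1.24-fold without overlap (adjusted p = 0.00319). NPC1 and the cytosolic sterol carrier STARD4 differed by -0.25 and 0.06 on the log2 scale and were not called.

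Of the 6 fatty acid genes 2 fell and 1 rose (50% called, close to the 45.9% of all genes). FASN, the fatty acid synthase, had 59.7, 57 and 66 CPM in siControl RAS libraries, against 147, 145 and 112 CPM in control libraries, and fell 2.21-fold (log2 -1.14 ± 0.11, adjusted p = 1.23e-10). ACLY, which supplies acetyl-CoA from citrate, had 188, 206 and 205 CPM in siControl RAS libraries, against 268, 266 and 251 CPM in control libraries, and fell 1.31-fold (adjusted p = 7.20e-05). FADS1, a desaturase of polyunsaturated fatty acids, had 131, 135 and 147 CPM in siControl RAS libraries, against 87.4, 87 and 72 CPM in control libraries, and rose 1.68-fold (adjusted p = 4.20e-08). None of these 3 overlapped between the groups. FADS2, the desaturase beside it on the opposite strand, had 54.1, 54.5 and 48.8 CPM in siControl RAS libraries, against 46.9, 54.5 and 58.1 CPM in control libraries. SCD, which makes monounsaturated fatty acids, had 64.2, 78.9 and 83.4 CPM in siControl RAS libraries, against 75.8, 61.4 and 56.7 CPM in control libraries. Neither was called (adjusted p = 0.930 and 0.165), nor was the elongase ELOVL6 (log2 -0.18), and their groups overlapped. FADS2 overlaps FEN1, a replication nuclease on the same strand, with 5571 counts for FADS2 and 2338 for FEN1. FEN1 fell with RAS (log2 -2.60, adjusted p = 4.85e-13), and its part in the FADS2 values was not tested.

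**Figure D3:**
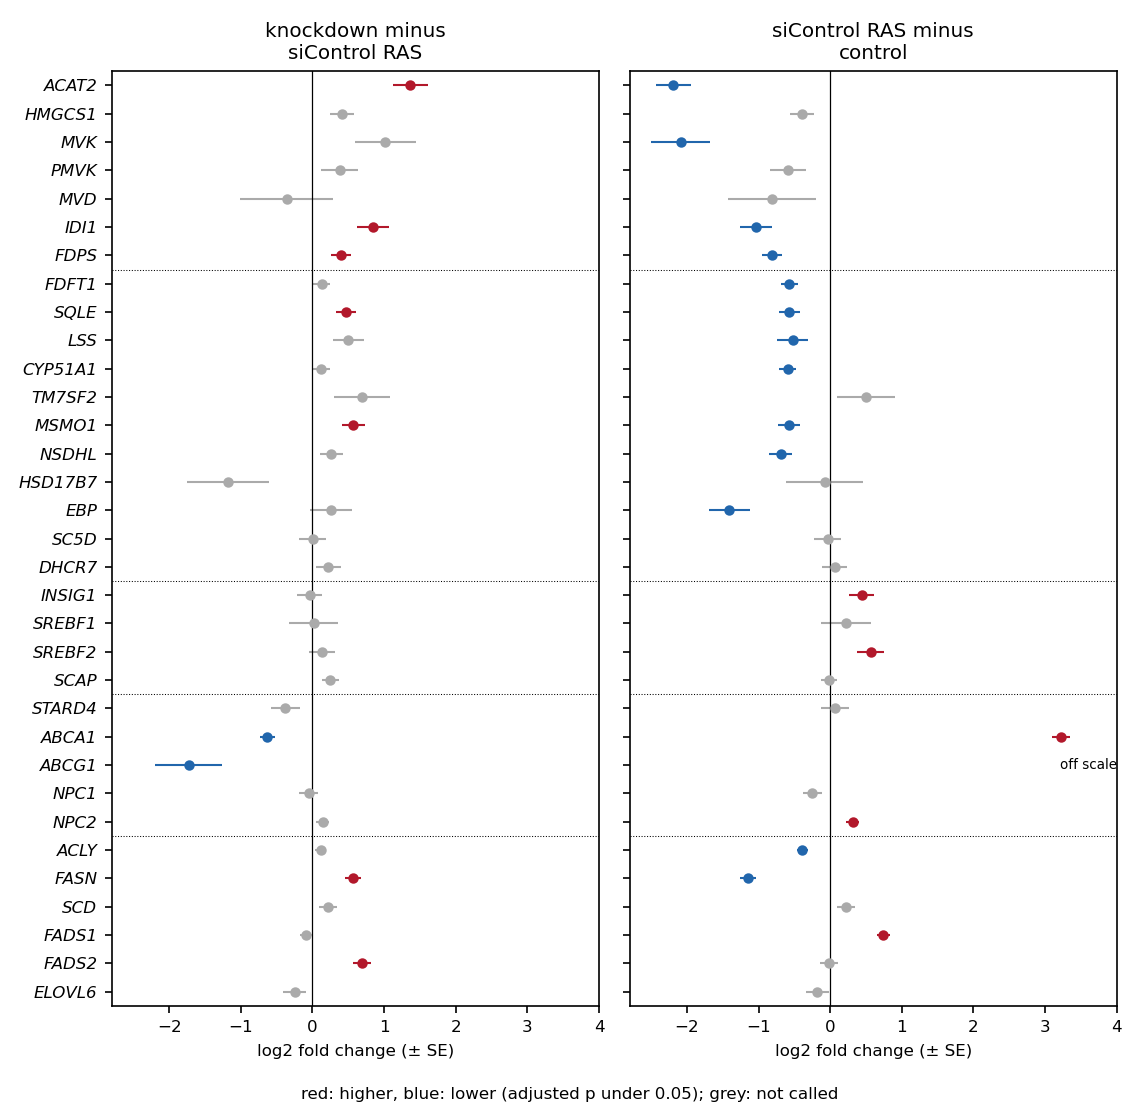
Log2 fold change with its standard error for each member, knockdown against siControl RAS in one panel and siControl RAS against control in the other; red points are called higher and blue points lower at an adjusted p under 0.05, and grey points are not called. ABCG1 is marked off scale in the RAS panel, since control had no counts. The enzymes of both arms lie mostly left of 0 for RAS (16 of 18) and right of 0, or at it, for the knockdown (16 of 18 above 0).

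Knockdown of METTL14 in RAS cells was accompanied by higher levels of 5 synthesis enzymes and by lower levels of both exporters. This comparison sets knockdown cells, which carry a lentiviral vector, against siControl RAS cells, for which lentivirus is not stated. Loss of METTL14, other effects of the siRNA and the lentivirus cannot be told apart in it. The comparison shares its siControl RAS libraries with the one above. Of 33 members 9 were called, 7 higher and 2 lower (27.3%), where 15.5% of all genes were (7.47% higher, 8.06% lower). The libraries did not overlap for 16 of 33 members and for 30% of all genes. The median log2 change was 0.22 over the members and -0.0028 over all genes. Of the 18 synthesis enzymes 5 rose and 0 fell, 16 had a value above 0, and their median was 0.39; DESeq2 and limma-voom each called 4 higher and 0 lower, and by unadjusted p 8 were higher and 1 lower. Because siControl RAS libraries enter both comparisons, a low value in them would show as a fall in one and a rise in the other.

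In the mevalonate arm 3 of 7 enzymes rose (42.9% called, against 15.5% of all genes). The arm summed to 126 to 169 CPM in knockdown libraries, against 94.1 to 103 CPM in siControl RAS libraries. ACAT2 had 21.7, 15.3 and 21.8 CPM in knockdown libraries, against 6.06 to 9.55 CPM in siControl RAS libraries, and rose 2.58-fold with no overlap (log2 1.36 ± 0.25, adjusted p = 8.87e-05). Its overlapping neighbour TCP1 had a log2 change of 0.08 and was not called (adjusted p = 0.60). IDI1 had 17.9, 23 and 27.9 CPM in knockdown libraries, against 9.94 to 15.5 CPM in siControl RAS libraries, a 1.80-fold rise (adjusted p = 0.00641) that was not called without knockdown replicate 3 or siControl RAS replicate 1 (log2 0.69 in both, adjusted p = 0.0602 to 0.0627). FDPS had 44.5, 41.7 and 60.7 CPM in knockdown libraries, against 34.8 to 40.8 CPM in siControl RAS libraries (log2 0.40 ± 0.14, adjusted p = 0.0486). Knockdown replicate 3 was the highest FDPS library of these 2 groups, and the call was lost without knockdown replicate 3 or siControl RAS replicate 1 or 2 (log2 0.22 to 0.37, adjusted p = 0.140 to 0.406), by DESeq2 (adjusted p = 0.0532), by limma-voom (adjusted p = 0.0730), with DESeq2's size factors (adjusted p = 0.0519), without the low-count filter (adjusted p = 0.0555) and when only the libraries compared were fitted (adjusted p = 0.102). MVK had 7.11, 4.17 and 4.27 CPM in knockdown libraries, all above the 1.60 to 3.56 CPM of siControl RAS libraries, but its log2 difference of 1.02 ± 0.42 was not called (adjusted p = 0.104). MMAB, which overlaps MVK, had a log2 change of 1.24 and was not called either (adjusted p = 0.107). HMGCS1, PMVK and MVD differed by 0.41, 0.38 and -0.36 on the log2 scale and were not called.

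In the sterol arm 2 of 11 enzymes rose (18.2% called, close to the 15.5% of all genes). MSMO1 had 66.9, 50.3 and 63.5 CPM in knockdown libraries, against 36.9, 50.6 and 34 CPM in siControl RAS libraries. The groups overlapped by replicate 2 of siControl RAS cells, and the 1.49-fold rise (adjusted p = 0.00890) was not called without siControl RAS replicate 1 or 3 (log2 0.47 to 0.51, adjusted p = 0.0560 to 0.0666). SQLE had 53.6, 45.8 and 41.9 CPM in knockdown libraries, against 30.5 to 36.4 CPM in siControl RAS libraries, and rose 1.39-fold without overlap (adjusted p = 0.0207), a call lost without knockdown replicate 1 or siControl RAS replicate 2 (log2 0.37 to 0.41, adjusted p = 0.104 to 0.125). EBP, NSDHL and CYP51A1, which fell with RAS, overlapped between the groups, and none was called for the knockdown (adjusted p = 0.641, 0.322 and 0.604). EBP had 8.13, 10.5 and 17.1 CPM in knockdown libraries, with replicate 3 above the other two. NSDHL had 52, 34.9 and 50.2 CPM and CYP51A1 58.7, 64.4 and 57.1 CPM in knockdown libraries. Among the rest, LSS had a log2 difference of 0.50, TM7SF2 0.69, FDFT1 0.13, DHCR7 0.22, SC5D 0.00 and HSD17B7 -1.18, with no call.

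No gene of SREBP control was called for the knockdown (0 by edgeR, DESeq2 and limma-voom, and 1 higher by unadjusted p). SREBF2 had 32.3, 31.2 and 36.8 CPM, SREBF1 7.52, 8.18 and 9.85 CPM and INSIG1 35.4, 30.7 and 28.7 CPM in knockdown libraries, and all overlapped with siControl RAS libraries. SCAP had 79.9, 74.2 and 75.3 CPM in knockdown libraries, above the 56.7 to 71.7 CPM of siControl RAS libraries, with a log2 difference of 0.25 (adjusted p = 0.159).

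Both exporters fell. ABCA1 had 85.3, 95.1 and 96.5 CPM in knockdown libraries, against 129 to 153 CPM in siControl RAS libraries, a 1.55-fold fall with no overlap (log2 -0.63 ± 0.10, adjusted p = 2.21e-05). ABCG1 had 3.66, 2.93 and 2.63 CPM in knockdown libraries, against 10.5, 5.25 and 14.8 CPM in siControl RAS libraries, and fell 3.31-fold (log2 -1.73 ± 0.46, adjusted p = 0.00813). The siControl RAS libraries of ABCG1 were widely spread, and the call was lost without siControl RAS replicate 3 (log2 -1.36, adjusted p = 0.0960). Both exporters were above every control library in all knockdown libraries: ABCA1 had 13.6 to 16.7 CPM and ABCG1 no counts in control, and ABCG1 was at least 18.7-fold higher in knockdown cells than in control. NPC2, NPC1 and STARD4 differed between knockdown and siControl RAS cells by 0.14, -0.05 and -0.38 on the log2 scale, with no call.

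Of the fatty acid genes 2 rose and 0 fell in knockdown cells (33.3% called, against 15.5% of all genes). The counts were the same by DESeq2, limma-voom and unadjusted p. FASN had 92.7, 91.8 and 86.7 CPM in knockdown libraries, against 57 to 66 CPM in siControl RAS libraries, and rose 1.48-fold without overlap (log2 0.57 ± 0.11, adjusted p = 2.98e-04). FADS2 had 89.2, 79.3 and 85.7 CPM in knockdown libraries, against 48.8 to 54.5 CPM in siControl RAS libraries, and rose 1.61-fold (log2 0.69 ± 0.13, adjusted p = 1.35e-04). Its neighbour FEN1 on the same strand had a log2 change of 0.48 that was not called (adjusted p = 0.128). FADS1, ACLY, SCD and ELOVL6 differed by -0.09, 0.12, 0.22 and -0.25 and were not called.

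Knockdown cells were also set against control, to see which members still stood apart from cells without RAS. Of 33 members 18 were called, 8 higher and 10 lower (54.5%), where 36% of all genes were (19.2% higher, 16.7% lower). This comparison shares libraries with both comparisons above. Of the 18 synthesis enzymes 1 was higher and 7 were lower in knockdown cells than in control. IDI1, LSS, MSMO1 and SQLE were not called, with log2 differences of -0.18, -0.02, -0.00 and -0.10 and standard errors of 0.21, 0.21, 0.15 and 0.14. EBP (-1.15), MVK (-1.07) and ACAT2 (-0.83) showed the largest called falls against control on the log2 scale, and FASN was -0.57. ABCA1 (2.59), TM7SF2 (1.19), SREBF2 (0.70), FADS2 (0.67), FADS1 (0.66), NPC2 (0.45) and SCD (0.44) rose, as did ABCG1 (at least 18.7-fold). Single libraries decided several of these calls: MVK was lost without knockdown replicate 2 or 3 or control replicate 2 (log2 -0.94 to -0.86, adjusted p = 0.108 to 0.143), FDPS without knockdown replicate 1 or 2 or control replicate 3 (log2 -0.35 to -0.31, adjusted p = 0.0709 to 0.118), NSDHL without knockdown replicate 2 or control replicate 1 or 2 (log2 -0.42 to -0.26, adjusted p = 0.0774 to 0.257), TM7SF2 without knockdown replicate 3 or control replicate 1 (log2 0.95 to 1.06, adjusted p = 0.0744 to 0.0977), ELOVL6 without knockdown replicate 1, 2 or 3 or control replicate 3 (log2 -0.46 to -0.34, adjusted p = 0.0570 to 0.159), and SCD without control replicate 3 (log2 0.35, adjusted p = 0.0508). ELOVL6 was also lost without the low-count filter (adjusted p = 0.0565). The overlap with FEN1 limits the FADS2 value here as well. Over the 5 groups, siControl RAS cells had the lowest mean for 16 members and control cells for 8. Of the 33 members 10 were called in none of these 3 comparisons.

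With METTL14 returned to knockdown cells, no synthesis enzyme was called against vector for either form (0 of 18 by edgeR, DESeq2 and limma-voom; by unadjusted p, 1 lower with wild-type and 2 lower with R298P METTL14). These comparisons ask whether wild-type METTL14 or its R298P form turns the changes back, and both share the vector libraries of the knockdown. For wild-type METTL14 against vector 0 of 33 members were called by edgeR, DESeq2 and limma-voom, with 0 higher and 5 lower by unadjusted p, where 0.621% of all genes were called (0.326% higher, 0.296% lower). For R298P against vector 1 member was called by each tool, with 0 higher and 6 lower by unadjusted p, where 1.09% of all genes were called (0.54% higher, 0.555% lower). That member was SCD, with 60.7, 51.8 and 53.7 CPM in R298P add-back libraries, against 79.9, 91.2 and 91.4 CPM in knockdown libraries, a 1.58-fold fall with no overlap (log2 -0.66 ± 0.13, adjusted p = 0.00294). With wild-type METTL14 SCD had 56.4, 65.3 and 71.8 CPM, also below every knockdown library (log2 -0.44, adjusted p = 0.154). Without R298P replicate 1, 2 members were called for R298P against vector.

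**Figure D4:**
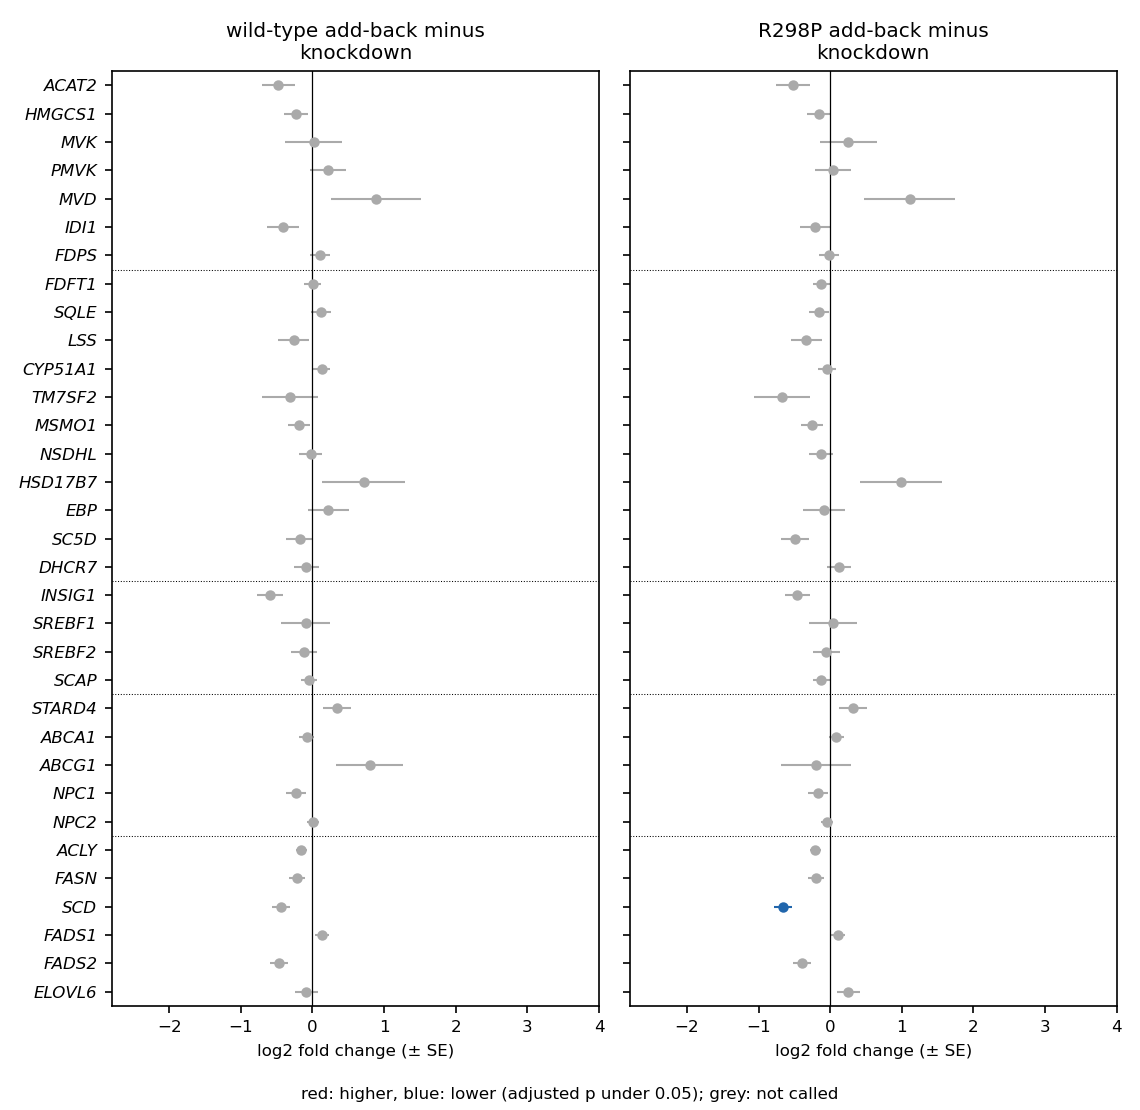
Log2 fold change with its standard error for each member, wild-type add-back against vector in one panel and R298P add-back against vector in the other; blue marks a call of lower at an adjusted p under 0.05, and grey points are not called. SCD in the R298P panel (log2 -0.66) is the one coloured point, and no point is called in the wild-type panel.

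ACAT2 had 17.2, 14.5 and 10.5 CPM in wild-type and 12.2, 13.1 and 15.8 CPM in R298P add-back libraries, against 15.3 to 21.8 CPM in knockdown libraries. Its log2 differences from vector were -0.48 ± 0.23 and -0.52 ± 0.23, with no call. ABCA1 had 89.7, 89 and 83.6 CPM in wild-type and 98.6, 104 and 90.6 CPM in R298P add-back libraries, against 85.3 to 96.5 CPM in knockdown libraries and 129 to 153 CPM in siControl RAS libraries. ABCG1 had 5.86, 4.94 and 5.26 CPM in wild-type and 2.54, 3.41 and 2.03 CPM in R298P add-back libraries, against 2.63 to 3.66 CPM in knockdown libraries. The wild-type libraries of ABCG1 all lay above the knockdown libraries, with a log2 difference of 0.80 ± 0.47 that was not called (adjusted p = 0.758). INSIG1 had 21.4, 22.1 and 19.2 CPM in wild-type and 20.4, 25.6 and 23.1 CPM in R298P add-back libraries, all below the 28.7 to 35.4 CPM of knockdown libraries. Its differences from vector, -0.59 and -0.46 on the log2 scale, were not called (adjusted p = 0.199 and 0.348). Wild-type and knockdown libraries did not overlap for 7 of 33 members and for 1763 of 13516 genes. For R298P against knockdown libraries this held for 10 members and 2029 genes.

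Wild-type and R298P add-back cells were set against each other, and no member was called (0 by edgeR, DESeq2 and limma-voom, with 1 higher and 1 lower by unadjusted p), where 0.0222% of all genes were (0.0148% higher, 0.0074% lower). METTL14 itself was lower in wild-type than in R298P add-back cells, with a log2 difference of -0.79 ± 0.12 (adjusted p = 0.0322), a call lost without any 1 of the 6 libraries (adjusted p = 0.0726 to 0.343) and with the replicate block (adjusted p = 0.0875). The fitted difference for ABCG1 was 1.00 ± 0.47 (adjusted p = 1.00), with all wild-type above all R298P libraries. For ACAT2 it was 0.04 ± 0.24, for FASN -0.02 ± 0.11 and for ABCA1 -0.16 ± 0.10. Libraries of the 2 add-back groups did not overlap for 5 of 33 members and for 1581 of 13516 genes. A p that misses the threshold does not show that both forms act alike.

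Both add-back groups were also set against siControl RAS cells, whose libraries these 2 comparisons and that of the knockdown share. The siRNA and the lentivirus limit these 2 comparisons in the same way. In wild-type add-back cells 6 members were called, 4 higher and 2 lower, where 13% of all genes were (6.32% higher, 6.67% lower). These were ACAT2 (0.89), SQLE (0.60), FDPS (0.51), FASN (0.36), ABCA1 (-0.71) and INSIG1 (-0.63), in log2 changes. In R298P add-back cells 6 members were called, 3 higher and 3 lower, where 13.4% of all genes were (6.27% higher, 7.14% lower): MVK (1.27), ACAT2 (0.85), FASN (0.37), ABCG1 (-1.92), ABCA1 (-0.54) and SCD (-0.44). In wild-type add-back cells the call of ACAT2 was lost without wild-type add-back replicate 1 or siControl RAS replicate 1 or 3 (log2 0.73 to 0.85, adjusted p = 0.0537 to 0.0911), that of FDPS without siControl RAS replicate 2 (log2 0.47, adjusted p = 0.0560), that of FASN without wild-type add-back replicate 1 or 2 or siControl RAS replicate 1 or 2 (log2 0.30 to 0.37, adjusted p = 0.0637 to 0.135) and that of INSIG1 without wild-type add-back replicate 3 or siControl RAS replicate 3 (log2 -0.57 to -0.55, adjusted p = 0.0740 to 0.0743). In R298P add-back cells MVK was lost without R298P add-back replicate 2 or 3 or siControl RAS replicate 1 or 3 (log2 1.04 to 1.33, adjusted p = 0.0686 to 0.181), ACAT2 without R298P add-back replicate 3 or siControl RAS replicate 1 or 3 (log2 0.72 to 0.81, adjusted p = 0.0712 to 0.0952), FASN without R298P add-back replicate 1 or 3 or siControl RAS replicate 1 or 2 (log2 0.32 to 0.37, adjusted p = 0.0580 to 0.110), ABCG1 without siControl RAS replicate 3 (log2 -1.56, adjusted p = 0.0591) and SCD without R298P add-back replicate 2 or 3 or siControl RAS replicate 2 or 3 (log2 -0.42 to -0.36, adjusted p = 0.0675 to 0.107). By limma-voom ACAT2 and FASN were not called in wild-type (adjusted p = 0.0564 and 0.0571) nor MVK and ACAT2 in R298P add-back cells (adjusted p = 0.0839 and 0.0648), and MVK was not without the low-count filter (adjusted p = 0.0555) or with only the libraries compared (adjusted p = 0.0700). ABCA1 stayed called in both with any 1 library left out.

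Other genes of the same pathways were read from 4 lists, to be set against the 45.9% of all genes that edgeR called for RAS and the 15.5% for the knockdown. Of 11 genes of SREBP processing and sterol-regulated degradation 3 rose and 1 fell with RAS (36.4% called), and 0 rose and 2 fell with the knockdown (18.2% called; 0 higher by DESeq2, limma-voom and unadjusted p as well). INSIG2, the other retention protein, had 31.5 ± 6.19 CPM in siControl RAS cells and 7.88 ± 4.09 CPM in control cells (SD, n = 3 each), a log2 rise of 2.00, and with 15.2 ± 2.95 CPM it was lower in knockdown than in siControl RAS cells (-1.05); the knockdown call was lost without knockdown replicate 1 or 3 or siControl RAS replicate 1 or 2 (log2 -1.11 to -0.89, adjusted p = 0.0565 to 0.116). MBTPS1, a protease that cuts SREBP, rose with RAS (0.60). RNF145, a ubiquitin ligase, fell with the knockdown (-0.58). Of 14 genes of the isoprenoid branch 2 rose and 3 fell with RAS (35.7% called), and 0 rose and 1 fell with the knockdown (7.14% called; 0 higher by DESeq2 and limma-voom, 1 by unadjusted p). PDSS1, which builds the tail of coenzyme Q, fell with RAS by 2.44 on the log2 scale, DHDDS of dolichol synthesis by 0.88 and COQ2 of coenzyme Q synthesis by 0.87 (lost without siControl RAS replicate 1, log2 -0.69, adjusted p = 0.0736), while TRIT1, which isopentenylates tRNA, fell with the knockdown (-1.01).

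Of 24 genes of sterol uptake, esterification, oxysterols and LXR 22 were tested; 6 rose and 8 fell with RAS (63.6% called, against 45.9% of all genes), and 3 rose and 1 fell with the knockdown (18.2% called, against 15.5% of all genes). VLDLR, a lipoprotein receptor, had 36.5 ± 3.27 CPM in siControl RAS cells and 3.82 ± 1.72 CPM in control cells, a log2 rise of 3.25, and it was lower in knockdown than in siControl RAS cells (-1.26). TMEM97, a sterol-responsive protein that binds NPC1, had 21 ± 1.30 CPM in knockdown, 8.24 ± 2.28 CPM in siControl RAS and 56.3 ± 10.4 CPM in control cells. Its log2 change was -2.78 for RAS and 1.36 for the knockdown, both called. GRAMD1B, which carries cholesterol from the plasma membrane, fell with RAS (-2.73), and HSD3B7 of bile acid synthesis rose with the knockdown (1.10). The call of HSD3B7 was lost without knockdown replicate 1, 2 or 3 or siControl RAS replicate 1 or 2 (log2 0.63 to 1.19, adjusted p = 0.0545 to 0.144), and with only the libraries compared (adjusted p = 0.106). The LXR targets MYLIP and LPCAT3, picked after their values were seen, rose with RAS (1.63 and 1.26). MYLIP was lost without siControl RAS replicate 1 or control replicate 1 or 3 (log2 1.30 to 1.43, adjusted p = 0.0513 to 0.0651). Among members that LXR can also act on, SREBF1 and SCD were not called with RAS, and FASN fell. LPCAT3 had 209, 314 and 234 raw counts in knockdown libraries, against 254, 167 and 193 in siControl RAS libraries. MYLIP had 38, 27 and 45 against 98, 29 and 55. These counts are not scaled for depth, so overlap between the groups cannot be read from them. The same libraries held 4917661, 6441349 and 6073854 counts in knockdown cells, against 7763084, 5611724 and 5879479 in siControl RAS cells. The part of LXR in these changes was not tested. Of 20 genes of fatty acid supply 6 rose and 7 fell with RAS (65% called), and 2 rose and 5 fell with the knockdown (35% called). ACACB, the mitochondrial acetyl-CoA carboxylase, had 1.56 ± 0.765 CPM in knockdown, 9.51 ± 3.03 CPM in siControl RAS and 1.80 ± 0.892 CPM in control cells, log2 changes of 2.39 for RAS and -2.62 for the knockdown. ACSL4, which activates polyunsaturated fatty acids, changed by 2.34 and -1.19. GPAM, the first acyltransferase of glycerolipid synthesis, fell with RAS (-1.22), a call lost without control replicate 3 (log2 -0.95, adjusted p = 0.0615), and CPT1A, which admits fatty acids to mitochondria, fell with the knockdown (-0.90).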

How the data were processed

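The authors deposited unnormalised counts per Ensembl gene for 15 QuantSeq 3′ libraries in 5 groups of 3, made 48 hours after the second transfection, per the labels' protocols. Bowtie2, RSEM 1.2.12 and hg19 are named without a role, per the submitters' processing notes; the annotation, filters and strand setting are not stated there. Each transcript yields roughly 1 tag in such a 3′ method, and isoforms with a shared end are not told apart.

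Symbols were matched by Ensembl ID (52301 IDs, 90.6%). All libraries were fitted in 1 model with 5 group coefficients in edgeR 4.0.16 (R 4.3.3), with TMM factors, edgeR's default filter on low counts and robust quasi-likelihood F tests on 10 residual degrees of freedom; 13516 genes, with 99.8% of the counts, were tested, and p-values were adjusted over all of them. The biological coefficient of variation was 16.7%. The fit was tested on simulated data. Exact permutation of 3 against 3 libraries gives p = 0.1 at best and was not used. No library copied another of its group (chi-square per degree of freedom 3.52 to 8.47). The members, lists and rules were chosen with earlier results of these data known. Every library's value is printed for SREBF1, SREBF2, SCAP and INSIG1, for the called members with the largest change in each role, at most 4, in RAS against control and in knockdown against siControl RAS, and for each member called in an add-back against vector. From each other list up to 3 called genes per comparison are named. MYLIP and LPCAT3 were added outside this rule after their values were seen. Alternatives were DESeq2 1.42.0, limma-voom (limma 3.58.1), other size factors, no filter, only the libraries compared, the replicate number as a block, and each library left out. Promoters are from RefSeq GRCh38.p14, another build than that of the counts.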

Additional observations from a re-analysis of the deposited data

How the results depend on the processing

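No called change of a member changed direction under any alternative tried. The replicate numbers gave no clear pairing of libraries: over 30 same-numbered pairs the deviations from the group means correlated at -0.0805 to 0.0983. In 8 of 15 libraries the best correlation was with the own number. These values do not show that pairing is absent. With the replicate block 18 members were called for RAS against control, 9 for the knockdown, 0 and 1 for the add-backs against vector, and 7 for R298P against siControl RAS; LSS was the call lost (adjusted p = 0.0507). Leaving out 1 library moved the members called for R298P against vector between 1 and 2 and for R298P against siControl RAS between 2 and 6, with fewer libraries in each fit. DESeq2 and limma-voom each called 19 members for RAS and 8 for the knockdown, and the call of FDPS in the knockdown was lost in both. For INSIG1 in RAS cells the call was lost with upper-quartile factors (adjusted p = 0.0625) and without the filter (adjusted p = 0.0831). Upper-quartile factors shifted the median of all genes by -0.04 for RAS and 0.03 for the knockdown, and turned the balance of all calls to 3073 higher and 3169 lower for RAS and 1168 higher and 970 lower for the knockdown, against 5 higher and 15 lower and 7 higher and 2 lower among members. Allowing 1 mismatch raised the share of member promoters with the sterol element to 46.4%. Depth limits MVD, HSD17B7, MVK and TM7SF2, which had 6, 6, 9 and 15 counts in their lowest library. It also limits ABCG1, which had no counts in control, 16 to 19 in knockdown and 10 to 20 in R298P add-back libraries.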
